A study of Mus musculus with 2 samples.

Results

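Pachytene spermatocytes of the adult mouse testis were taken from droplet single-cell RNA sequencing of 1 Nsun7 knockout (KO) library and 1 wild-type (WT) library. A barcode was a member when it held 200 or more genes, at most 20% mitochondrial counts and under 5% of counts from the spermatid genes Prm1, Prm2, Tnp1 and Tnp2. In addition, 3 or more genes of a pachytene panel (panel P: Piwil1, Mybl1, Sycp1, Adad2, Pou5f2 and Ovol2) had to be detected, and more than in each of the other panels. Those were panel E for leptotene to zygotene (Dmc1, Prdm9, Meiob, Rad51ap2, Meioc, Prss50), panel D for diplotene and division (Ccna1, Aurka, Nek2, Cdc25c, Ttk, Bub1b) and panel R for round spermatids (Acrv1, Spaca3, Spaca7, Lyzl6, Lyzl4, Tex36). The rule found 720 members among 33213 barcodes: 138 in the KO library and 582 in the WT library. Nsun7 is a relative of the enzymes that place 5-methylcytosine (m5C) on RNA, and the series links it to assembly of the sperm flagellum. The KO library was made from adult Nsun7 KO mouse testis and the WT library from adult WT mouse testis. For strain, exact age, number of animals and the deleted part of Nsun7, the labels give nothing.

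Pachytene is the long stage of meiotic prophase in which homologous chromosomes are fully joined by the synaptonemal complex and crossovers form. The X and Y chromosomes, which pair only along a short region, are packed into the sex body and silenced, a process called meiotic sex chromosome inactivation. At the same time pachytene cells switch on the MYBL1-driven programme that includes pachytene piRNAs and store many transcripts that are used later, in spermatids.

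The promoter windows of 4 genes that mark this stage are shown here because MYB-type letters were counted in all promoters further below. The windows come from RefSeq (GRCm38.p6) and run from 250 bases before to 50 bases after a gene start, written 5′ to 3′ on the gene's strand. Capitals mark matches to AACNGTT or TAACNG, both bound by MYB family proteins, on either strand, and the 2 motifs can overlap. Piwil1 (chr5:128735996-128736295, plus strand) encodes the PIWI protein that binds pachytene piRNAs. Sycp1 (chr3:102936051-102936350, minus strand) encodes the transverse filament of the synaptonemal complex. Pou5f2 (chr13:78024652-78024951, plus strand) encodes a POU domain transcription factor of male germ cells. Spink2 (chr5:77211156-77211455, minus strand) encodes a protease inhibitor of the acrosome and is among the genes that were farthest above panel E barcodes.
Piwil1: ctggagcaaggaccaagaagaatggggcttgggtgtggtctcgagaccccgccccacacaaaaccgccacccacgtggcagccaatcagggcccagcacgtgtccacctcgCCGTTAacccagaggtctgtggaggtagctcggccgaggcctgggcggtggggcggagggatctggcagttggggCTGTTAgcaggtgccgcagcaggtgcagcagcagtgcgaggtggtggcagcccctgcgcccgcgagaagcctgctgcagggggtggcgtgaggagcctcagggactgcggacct
Sycp1: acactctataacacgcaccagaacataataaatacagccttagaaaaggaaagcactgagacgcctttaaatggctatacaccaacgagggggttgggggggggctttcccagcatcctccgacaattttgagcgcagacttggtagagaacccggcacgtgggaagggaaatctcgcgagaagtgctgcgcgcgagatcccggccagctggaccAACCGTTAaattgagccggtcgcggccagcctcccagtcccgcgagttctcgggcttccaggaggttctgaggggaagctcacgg
Pou5f2: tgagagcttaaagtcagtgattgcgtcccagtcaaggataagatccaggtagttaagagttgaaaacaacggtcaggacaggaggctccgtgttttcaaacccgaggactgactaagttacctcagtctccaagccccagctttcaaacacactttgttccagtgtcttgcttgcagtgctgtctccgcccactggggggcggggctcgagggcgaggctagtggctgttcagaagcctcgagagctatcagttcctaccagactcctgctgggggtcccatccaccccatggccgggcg
Spink2: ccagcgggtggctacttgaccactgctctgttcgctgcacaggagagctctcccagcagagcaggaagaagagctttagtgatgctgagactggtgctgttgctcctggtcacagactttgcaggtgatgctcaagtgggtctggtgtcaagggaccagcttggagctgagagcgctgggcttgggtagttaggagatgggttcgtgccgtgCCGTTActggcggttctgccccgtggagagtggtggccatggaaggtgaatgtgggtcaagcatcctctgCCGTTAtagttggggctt
The Sycp1 window held 1 AACNGTT match, which began 35 bases before the start and overlapped a TAACNG match. The Piwil1 window held 2 TAACNG matches, the farther one 139 bases before the start. The Spink2 window shown also held 2, 1 beginning 38 bases before the start and 1 after it. Other Spink2 windows, not shown, held 0 and 1. The Pou5f2 window held none of either motif. Of 14 genes looked up (panel P and the 8 named genes above panel E barcodes), 11 had a window. Over their 13 windows, AACNGTT lay in 1 and TAACNG in 4. The windows of Adad2, Ovol2, Rbakdn, Cdc42ep3, Pbp2, Tmbim7 and Stpg4, not shown, held neither motif. A match describes the letters only.

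The members made up 0.995% of the 13869 kept KO barcodes (95% interval 0.837% to 1.17%) and 3.84% of the 15139 kept WT barcodes (3.54% to 4.16%). The KO share was thus 0.259 times the WT share. With 1 library per genotype no difference in this text was tested or has a replicate check, and all intervals cover counting error only. The groups led by the other panels, picked by the same rule turned to their own panel, were also smaller in the KO library: 2.53% in KO and 4.62% in WT for panel E, 4.19% in KO and 10.9% in WT for panel D, and 7% in KO and 13.4% in WT for panel R. Protamine and transition protein genes took 16.5% of all counts of kept KO barcodes and 7.5% in WT, and the part of this in the shares was not tested. Since all shares are parts of a whole, fewer pachytene cells and more of other cells cannot be told apart.

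Membership rests on detected genes and so on depth. KO members held a median of 6676 counts (quartiles 3274 and 14254) and WT members 12654 (4959 and 28346), although the kept barcodes as a whole were deeper in the KO library, at a median of 12020.0 counts in KO against 8723 counts in WT. In the KO library 55, 40, 29 and 14 members had 3, 4, 5 and 6 panel P genes, and in WT 156, 126, 140 and 160. Median counts climbed with that number, to 47468 in KO members and 42358 in WT members with all 6 genes, against 2968 in KO members and 3913 in WT members with 3. Just outside the threshold lay 94 KO and 308 WT barcodes with 2 panel P genes. A further 128 KO and 693 WT barcodes had 3 or more panel P genes but as many genes of another panel, which was panel D in 121 KO and 652 WT barcodes. Kept barcodes with 3000 or more counts were also thinned to 3000 counts before the rule, and those with fewer were left out. The rule then found 86 of 11240 KO barcodes (0.765%) and 414 of 11814 WT barcodes (3.5%). By the full rule, 106 KO and 503 WT members held 3000 or more counts. Called doublets, which were kept, numbered 1 KO and 20 WT members. The libraries shared 2168 barcode names over all barcodes.

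The panel genes that chose the members are given as a description. Piwil1 was detected in 91.3% of KO and 95% of WT members, at 523 CPM in KO and 772 CPM in WT. CPM are counts scaled to 1e+06 summed counts of the barcodes of a group in a library. Sycp1 reached 72.5% of KO and 89.5% of WT members and averaged 235 CPM in KO and 375 CPM in WT. It was higher still in panel E barcodes, at 2069 CPM in KO and 2261 CPM in WT. Pou5f2 stood at 266 CPM in KO and 229.9 CPM in WT members, against 1.33 CPM in KO and 4.19 CPM in WT panel E barcodes. Ovol2, a zinc finger transcription factor, stood at 163 CPM in KO and 155 CPM in WT, Mybl1 at 100.2 CPM in KO and 78.4 CPM in WT, and Adad2, a double-stranded RNA binding protein, at 30.1 CPM in KO and 38.1 CPM in WT. All 6 are therefore present in both libraries, with Adad2 the least often detected, in 24.6% of KO and 49.3% of WT members.

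Markers the rule did not use gave a mixed picture. The 10 pachytene genes outside the panel (among them Hspa2, Ldhc, Sycp3, Hormad1, Tbpl1 and Tcfl5) summed to 11353 CPM in KO members and 12316 CPM in WT members, against 3157 CPM in KO and 4354 CPM in WT panel E barcodes. Ldhc alone made up 8016 CPM in KO and 8744 CPM in WT members. Hspa2, Tbpl1 and Tcfl5 were also higher in members than in panel E barcodes in both libraries, whereas Sycp3, at 479.5 CPM in KO and 639 CPM in WT members, was lower than in panel E barcodes, at 1795 CPM in KO and 2323 CPM in WT. Hormad1 was lower too, at 116 CPM in KO and 185 CPM in WT members, against 472 CPM in KO and 634 CPM in WT panel E barcodes, and so was Ccnb1ip1. Panel D barcodes, at 9775 CPM in KO and 11305 CPM in WT, and panel R barcodes, at 10268 CPM in KO and 10500.1 CPM in WT, held nearly as much of the 10 genes in sum. Of these, Spag6 stood at 7.78 CPM in KO and 13.7 CPM in WT members. In panel R barcodes it reached 781 CPM in KO and 729.7 CPM in WT. Hist1h1t stood at 8.3 CPM in KO and 6.8 CPM in WT members. Its panel R levels were 7.66 CPM in KO and 8.36 CPM in WT. Pgk2 stood at 330.1 CPM in KO and 251 CPM in WT members. It was higher in panel D barcodes, at 399 CPM in KO and 390.4 CPM in WT, and in panel R barcodes, at 709 CPM in KO and 633 CPM in WT. Round spermatid markers summed to 35.8 CPM in KO and 58.9 CPM in WT members, against 3105 CPM in KO and 2770.2 CPM in WT panel R barcodes. Macrophage, myoid, endothelial and red cell markers each summed to at most 12.6 CPM in members of either library, and in KO members Amh, C1qa, Lyz2, Myh11, Cnn1, Cdh5 and Vwf were at 0. Sertoli markers reached 656 CPM in both libraries, Leydig markers 37.9 CPM in KO and 221 CPM in WT members, and spermatogonial markers 313 CPM in KO and 92.2 CPM in WT members. Late spermatid markers summed to 14689 CPM in KO and 7046 CPM in WT members. They were at 189618 CPM over all kept KO barcodes and 88398 CPM over all kept WT barcodes.

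A low share of sex-linked counts was the clearest feature of these cells that the rule did not use, though members were not alone in it. X-linked genes made up 0.466% of the summed counts of KO members (0.457% to 0.476%) and 0.328% of those of WT members (0.324% to 0.331%). In panel E barcodes they made up 2.71% in KO and 2.46% in WT, in panel D barcodes 0.753% in KO and 0.507% in WT, and in panel R barcodes 1.18% in KO and 1.13% in WT. The X-linked share was thus 5.82 times lower than in panel E barcodes in the KO library and 7.51 times lower in WT. Per barcode the median was 0.173% in KO members and 0.143% in WT members, against 2.76% in KO and 2.58% in WT panel E barcodes. In panel D barcodes it was 0.398% in KO and 0.277% in WT. The left-out barcodes with 3 or more panel P genes that tied with panel D were as low as members. Their median was 0.181% in KO and 0.144% in WT, and their summed share 0.282% in KO and 0.238% in WT. Y-linked counts moved the same way, with 0.00908% in KO and 0.00581% in WT members against 0.0593% in KO and 0.0557% in WT panel E barcodes. The 19 autosomes each stayed between 0.883 and 1.3 times their panel E share.

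**Figure D1:**
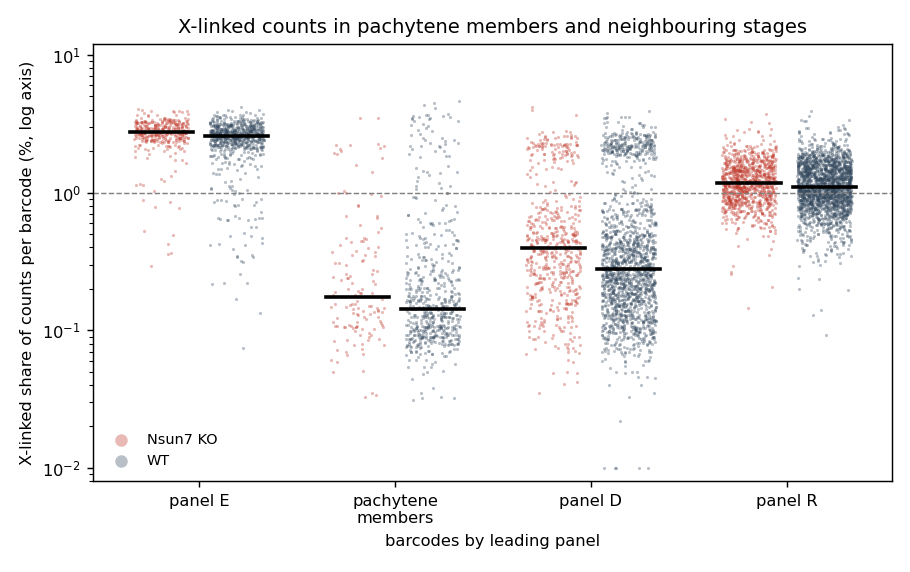
X-linked share of counts per barcode (log axis) in barcodes led by panel E, in pachytene members, and in barcodes led by panels D and R, KO in red and WT in dark blue; bars are medians and the dashed line marks 1%. Barcodes without X-linked counts are drawn at the lower end. Most members sit near their medians of 0.173% (KO) and 0.143% (WT), with a second cloud above 1%.

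The X-linked genes of highest level in members were partly spermatid and housekeeping genes. Akap4, a protein of the fibrous sheath of the sperm tail, stood at 327 CPM in KO and 184 CPM in WT members, beside 3652 CPM in KO and 2073 CPM in WT over all kept barcodes. Hypm and Tmsb15a followed the same order between libraries and were likewise far higher over all kept barcodes. Tmsb4x, which binds actin monomers, stood at 82 CPM in KO and 111 CPM in WT, and Ndufa1, a subunit of respiratory complex I, at 37.9 CPM in KO and 65.7 CPM in WT, against 748 CPM in KO and 889.7 CPM in WT panel E barcodes. Maged1 stood at 65.9 CPM in KO and 41.3 CPM in WT, and Rbbp7 at 65.4 CPM in KO and 39.8 CPM in WT. Among members under 1% X-linked counts, a limit described below, Tmsb4x stood at 26.3 CPM in KO and 27.4 CPM in WT. Maged1 there stood at 4.19 CPM in KO and 6.28 CPM in WT, and Rbbp7 at 5.98 CPM in KO and 8.62 CPM in WT. The limit itself lowers X-linked levels.

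Some members were not silenced by this measure. In 15 KO members (10.9%, 6.21% to 17.3%) and 58 WT members (9.97%, 7.65% to 12.7%) X-linked genes made up 1% or more of the counts, a limit set after the shares had been seen. They clustered at the low end of the rule: 11 of the 15 in KO and 39 of the 58 in WT had 3 panel P genes. Their summed Sertoli markers stood at 4686 CPM in KO and 7996 CPM in WT, against 40.1 CPM in KO and 78 CPM in WT among the other members. Spermatogonial markers stood at 2243 CPM in KO and 955 CPM in WT against 17.9 CPM in KO and 24.3 CPM in WT, and Leydig markers at 31.3 CPM in KO and 2613 CPM in WT against 38.9 CPM in KO and 32.6 CPM in WT. Only some barcodes carried each set: 4 or more Sertoli markers were detected in 3 of the 15 in KO and 18 of the 58 in WT, 4 or more spermatogonial markers in 10 in KO and 20 in WT, and 4 or more Leydig markers in 0 in KO and 4 in WT. The genes named for standing farthest above the other members included Clu and Ctsl, both Sertoli products, in each library, with Prn, Mageb4, Uchl1 and Dmrt1 in KO and Sparc, Jak3, Cyp17a1 and Agt in WT. The pachytene genes outside the panel summed to only 1425 CPM in these KO barcodes and 2967 CPM in these WT barcodes. As a group their summed markers thus go against the pachytene label, and 0 KO and 4 WT barcodes among them were called doublets. The results below are given for all members and, where it matters, also without them. The remaining 123 KO and 524 WT members had X-linked shares of 0.185% in KO and 0.138% in WT, which the limit itself lowers.

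Several X-linked housekeeping genes have autosomal copies that are known to be used while the X is silent, and 10 such copies were measured. Cetn1, Gk2, Pdha2, Rpl10l and Rpl39l were 3.3 to 46.6 times above their panel E level, Pgk2, Rpl36al and Cstf2t 1.04 to 2.27 times, and Rbmxl2 and Utp14b were below it. Cetn1, a centrin, stood at 1267 CPM in KO and 1348 CPM in WT members, against 69.2 CPM in KO and 98.7 CPM in WT panel E barcodes, which is 18.3 times higher in KO and 13.7 times in WT. Its X-linked parent Cetn2 stood at 15 CPM in KO and 5.38 CPM in WT members against 40.9 CPM in KO and 34.5 CPM in WT. Without the members at 1% or more X-linked counts Cetn2 stood at 1.79 CPM in KO and 2.01 CPM in WT. As it is X-linked, this change is partly built in. Gk2, a glycerol kinase, was 46.6 times higher than in panel E barcodes in KO and 13.3 times in WT, with 589 CPM in KO and 569 CPM in WT, while the parent Gk had 1 count in KO and 8 counts in WT members. Pdha2, a subunit of pyruvate dehydrogenase, reached 343 CPM in KO and 393 CPM in WT, against 58.9 CPM in KO and 84.1 CPM in WT panel E barcodes. The plot of copies and parents shows both.

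**Figure D2:**
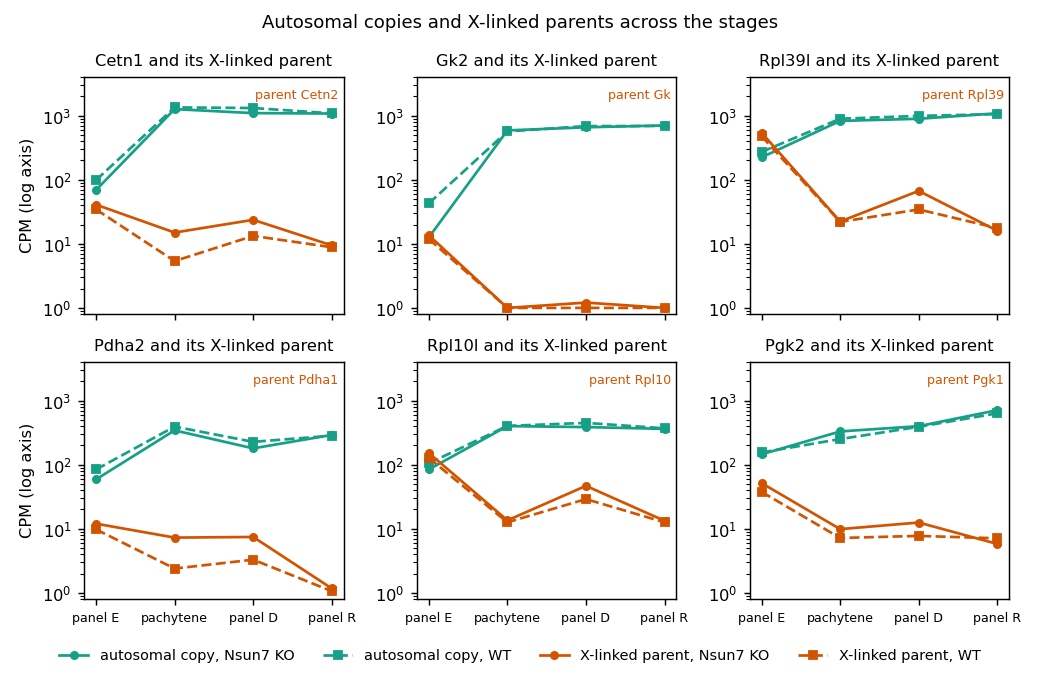
CPM (log axis) of 6 autosomal copies (green) and their X-linked parents (orange) in barcodes led by panel E, pachytene members, and barcodes led by panels D and R; solid lines are KO and dashed lines WT, and levels under 1 CPM are drawn at 1. All 6 copies are higher in members than in panel E barcodes in both libraries, while all 6 parents are lower.

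The ribosomal pairs behaved alike. Rpl39l stood at 829 CPM in KO and 897 CPM in WT members, against 224 CPM in KO and 272 CPM in WT panel E barcodes, and its parent Rpl39 at 22.3 CPM in KO and 22 CPM in WT against 543 CPM in KO and 479 CPM in WT. Rpl10l stood at 400.1 CPM in KO and 403 CPM in WT, against 84.2 CPM in KO and 105 CPM in WT, and its parent Rpl10 at 13.5 CPM in KO and 12.6 CPM in WT against 152 CPM in KO and 127 CPM in WT. Pgk2, the germ cell phosphoglycerate kinase, was 2.27 times higher than in panel E barcodes in KO and 1.62 times in WT. Rpl36al was 1.31 times in KO and 1.37 times in WT, and Cstf2t, a polyadenylation factor, 1.04 times its panel E level in both libraries. Rbmxl2, an RNA binding protein of meiosis, was lower than in panel E barcodes, with 131 CPM in KO and 153 CPM in WT against 209 CPM in KO and 211 CPM in WT, and so was Utp14b, at 16.1 CPM in KO and 19.2 CPM in WT against 28.6 CPM in KO and 21.2 CPM in WT. The parents of all these copies were lower in members than in panel E barcodes in each library. The parent Zfx stood at 2.08 CPM in KO and 3.44 CPM in WT, against 68.9 CPM in KO and 53.8 CPM in WT. Without the members at 1% or more X-linked counts Rpl39 stood at 5.38 CPM in KO and 4.11 CPM in WT. Rpl10 then stood at 1.2 CPM in KO and 3.87 CPM in WT.

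Against panel E barcodes, 1430 of 5492 genes at 50 CPM or more in either group were 2 times or more higher in members in both libraries (26%) and 1753 were lower (31.9%). These and the following stage comparisons describe barcodes that were picked on their own counts, with panel genes left out. The genes farthest above panel E barcodes included Slc2a3, the glucose transporter GLUT3, at 1593 CPM in KO and 1701 CPM in WT members against 30.3 CPM in KO and 88.9 CPM in WT. Spink2 stood at 1479 CPM in KO and 1506 CPM in WT against 38.6 CPM in KO and 74.7 CPM in WT, and Rbakdn at 1916 CPM in KO and 2137 CPM in WT against 60.6 CPM in KO and 102 CPM in WT. Cdc42ep3, an effector of the small GTPase CDC42, stood at 672 CPM in KO and 709 CPM in WT against 19.6 CPM in KO and 30.7 CPM in WT. Pabpc6, a poly(A) binding protein, was 76.1 times higher in KO and 19.5 times in WT, and Pbp2, Tmbim7 and Stpg4 were 52.3 to 72.1 times higher in KO and 18.5 to 20.5 times in WT. For all 8 genes the KO fold exceeded the WT fold, and the panel E level was lower in KO than in WT.

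The 8 genes farthest below panel E barcodes included 4 on the X chromosome. Stra8, the retinoic acid responsive switch into meiosis, stood at 43.6 CPM in KO and 18.4 CPM in WT members against 1227 CPM in KO and 859 CPM in WT. Tex15, needed for early recombination and for transposon silencing, stood at 18.2 CPM in KO and 13.7 CPM in WT against 722 CPM in KO and 686 CPM in WT. The X-linked genes Fmr1nb, Rhox13, Fmr1 and Trap1a had 3.63 to 6.75 CPM in KO and 4.41 to 7.77 CPM in WT members, and were 44.6 to 95 times lower. Tipin, a protein of the replication fork, was 32.1 times lower in KO and 34.8 times in WT, and Acer3, a ceramidase, 38 times in KO and 35.6 times in WT.

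**Figure D3:**
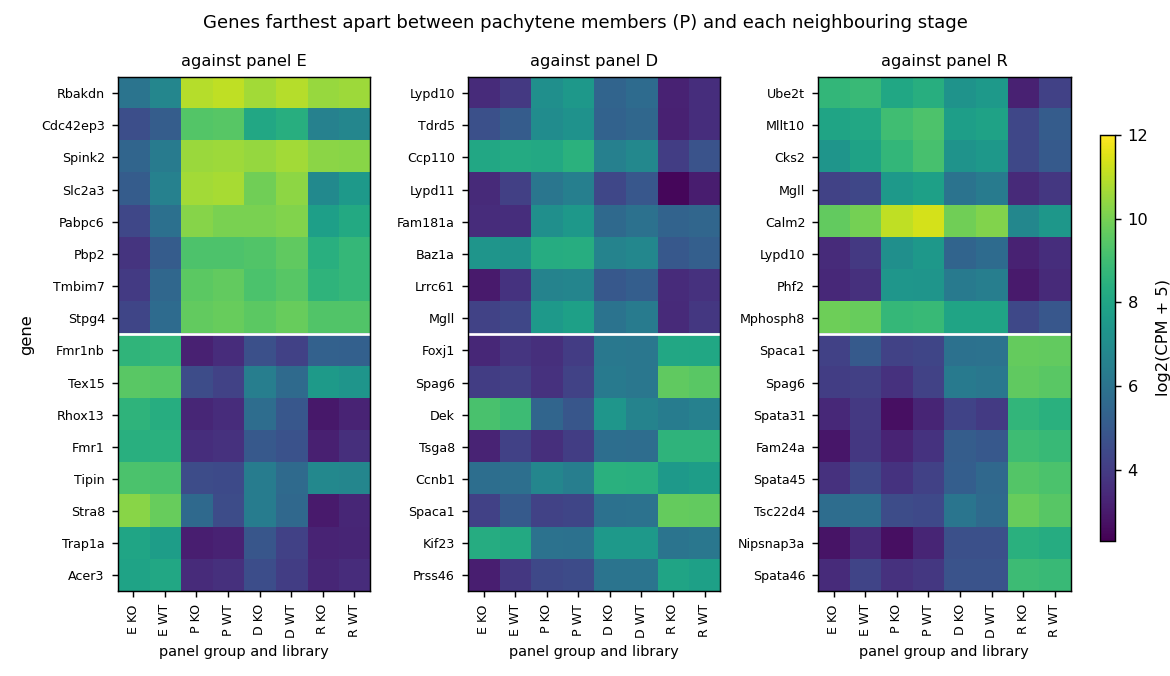
Levels, as log2(CPM + 5), of the genes farthest apart between pachytene members (P) and barcodes led by panels E, D or R, each with a KO and a WT column; genes above the white line are higher in members. The upper genes set against panel E are higher in P and D than in E and the lower ones are lower, and the upper genes set against panel R are lower in R than in D.

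Members differed little from panel D barcodes, which were picked on genes of diplotene and division. Of the panel D barcodes, 116 in KO (20%) and 290 in WT (17.6%) had 1% or more X-linked counts and were kept. Spermatogonial markers summed to 507 CPM in KO and 272 CPM in WT over all panel D barcodes. Of 3994 genes 50 were 2 times or more higher in members in both libraries and 50 were lower (1.25% each). Higher in members were Tdrd5, a Tudor domain protein of the piRNA pathway, at 123 CPM in KO and 147 CPM in WT against 36 CPM in KO and 41.9 CPM in WT, and Ccp110, which caps centrioles, at 283 CPM in KO and 352 CPM in WT against 87.6 CPM in KO and 109.9 CPM in WT. Baz1a, a chromatin remodelling subunit, stood at 311 CPM in KO and 319.9 CPM in WT against 95.2 CPM in KO and 106 CPM in WT. Lypd10, Lypd11, Fam181a, Lrrc61 and Mgll, a monoacylglycerol lipase, were 2.85 to 4.05 times higher. Among the genes lower in members, Ccnb1, a B cyclin of mitosis and meiosis, stood at 103 CPM in KO and 81.9 CPM in WT against 349 CPM in KO and 339 CPM in WT, and Kif23, a kinesin of cytokinesis, at 57.1 CPM in KO and 56.2 CPM in WT against 181 CPM in KO and 175 CPM in WT. Foxj1, the regulator of motile cilia, stood at 7.27 CPM in KO and 11.1 CPM in WT against 68.5 CPM in KO and 65.5 CPM in WT. Spag6, Tsga8, Spaca1, Prss46 and Dek were 3.44 to 9.4 times lower. Dek stood higher again in the earlier panel E barcodes, at 591 CPM in KO and 495 CPM in WT.

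Against panel R barcodes, 933 of 4776 genes were 2 times or more higher in members in both libraries (19.5%) and 1136 were lower (23.8%). Calm2, which encodes calmodulin, stood at 2173 CPM in KO and 2631 CPM in WT members against 107 CPM in KO and 169 CPM in WT. Cks2, a subunit of cyclin dependent kinases, stood at 416 CPM in KO and 568 CPM in WT against 15.9 CPM in KO and 27.7 CPM in WT, and Ube2t, a ubiquitin conjugating enzyme of DNA repair, at 263 CPM in KO and 327 CPM in WT against 4.15 CPM in KO and 13.2 CPM in WT. The chromatin proteins Mllt10, Phf2 and Mphosph8 were 26.3 to 55.5 times higher in KO and 17.5 to 26.4 times higher in WT. Spermatid genes were far lower. Spaca1, an acrosomal membrane protein, stood at 13.5 CPM in KO and 15.2 CPM in WT against 835 CPM in KO and 811 CPM in WT, and Spag6 at 7.78 CPM in KO and 13.7 CPM in WT against 781 CPM in KO and 729.7 CPM in WT. Spag6 is also in the list of pachytene genes outside the panel that was summed above. Tsc22d4 stood at 18.2 CPM in KO and 17 CPM in WT against 844 CPM in KO and 713 CPM in WT, and Spata31, Fam24a, Spata45, Nipsnap3a and Spata46 were 47.1 to 263 times lower.

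The letters of 4 motifs were counted in the promoters of the genes set against panel E barcodes, as a description with no test. AACNGTT lay in 8.98% of 256 windows of genes 8 times or more higher in members in both libraries, in 5.46% of 1464 windows of genes 2 times or more higher, and in 2.45% of 1795 windows of genes 2 times or more lower. The share was 3.49% over the 5616 windows of all genes tested and 4.45% over all 32851 windows. TAACNG lay in 34.4%, 27.2% and 18% of the same 3 sets, in 21.4% of the windows of genes tested and in 23.3% of all windows. GTTGCC, an arm of the X-box read by RFX factors, lay in 23%, 17.9% and 9.92% of these sets, in 14.1% of the windows of genes tested and in 12.5% of all windows. TGACGTCA, the full cAMP response element, lay in 1.56%, 2.25% and 3.79%, in 3.72% of the windows of genes tested and in 1.79% of all windows. Genes can have several windows, windows differ in base composition, and a match is neither a site nor a cause.

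The members were also split by the rule's own panels, as a description. More panel D than panel E genes were detected in 127 KO members (92%) and 496 WT members (85.2%), as many in 7 KO and 53 WT members, and fewer in 4 KO and 33 WT members. Panel D genes were more abundant in members than panel E genes, with Nek2 at 327 CPM in KO and 320.1 CPM in WT and Dmc1 at 4.67 CPM in KO and 3.21 CPM in WT, so this split does not place the members in time. In KO the smaller side, called early here, holds 14372 counts in all, and 2 of its 4 KO and 19 of its 33 WT barcodes had 1% or more X-linked counts. Its genes are thus partly those of barcodes whose markers go against the pachytene label. Of 4627 genes, 767 were 2 times or more higher on the late side in both libraries (16.6%) and 753 were lower (16.3%). Dazl, an RNA binding protein of early germ cells, stood at 1669.9 CPM in KO and 920.0 CPM in WT members of the early side, and at 102 CPM in KO and 60.8 CPM in WT on the late side. Dek, a chromatin protein, stood at 696 CPM in KO and 316 CPM in WT on the early side against 28 CPM in KO and 13.1 CPM in WT on the late side, and Tex15, Jade3 and Tex11 were also higher on the early side. On the late side Wdr20rt stood at 229 CPM in KO and 219.7 CPM in WT members, with 0 counts in KO and 4 counts in WT on the early side. Izumo4, a relative of the sperm fusion protein IZUMO1, stood at 127 CPM in both libraries, with 0 counts in KO and 1 count in WT on the early side. Adam30 had 0 counts in KO and 1 count in WT there, and Entpd1, Epyc and Dnah6, an axonemal dynein chain, had 0 counts there in both libraries.

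The targeted gene was checked in the members of both libraries. Nsun7 stood at 30.1 CPM in KO members (22.9 to 38.9, 58 counts) and 138 CPM in WT members (132 to 144, 1846 counts), so the KO level was 0.218 times the WT level. Nsun7 counts were thus left in the KO library, and whether they lie inside the deleted part is not known here. In WT, Nsun7 was low in panel E barcodes, at 25.8 CPM, and higher in later ones, at 209 CPM in panel D and 225 CPM in panel R barcodes. In the KO library it stood at 6.99 CPM in panel E, 48.5 CPM in panel D and 42.9 CPM in panel R barcodes. Thinned to 1000 counts, 4 of 138 KO members (2.9%) and 76 of 582 WT members (13.1%) held an Nsun7 count. Without thinning, 26.8% of KO and 65.3% of WT members held a count. Barcodes with 5 or more Leydig markers were taken as somatic cells for background, also without thinning. Their share was 0.283% in KO and 2.75% in WT, at median depths of 14403 counts in KO and 11993 counts in WT.

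Few other genes differed between KO and WT members. Among 3878 genes whose mean reached 50 CPM, 29 were 2 times or more higher in KO (0.748%) and 7 were lower (0.181%), on ratios with a prior of 5 CPM. With TMM scaling the counts were 19 higher and 8 lower, and with the mean of single barcodes' CPM 16 higher and 20 lower. At 1.5 times, 150 genes were higher in KO (3.87%) and 41 were lower (1.06%). The median log2 ratio was -0.03. The plot of KO against WT levels shows the narrow band. Prm1, a sperm protamine and a gene the rule limits, stood at 4009 CPM in KO and 1362 CPM in WT members. Prm1 and Tnp2, both late spermatid markers, were among the 29 higher genes. Of the 29 genes, 24 were 2 times or more higher over all kept WT barcodes than in WT members, against 6.88% of all 3878 genes. The level in WT members also picked the 29 genes, so this share is not independent of the choice and gives no support to a source. For the 29 genes the median log2 ratio was 1.13 in members, where the limit of 2 times that picked them sets a floor. It was 1.06 over all kept barcodes, 0.26 in panel E barcodes and 0.76 in panel D barcodes. For all 3878 genes these medians were -0.03 in members, -1.09 over all kept barcodes, -0.10 in panel E and -0.07 in panel D barcodes.

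**Figure D4:**
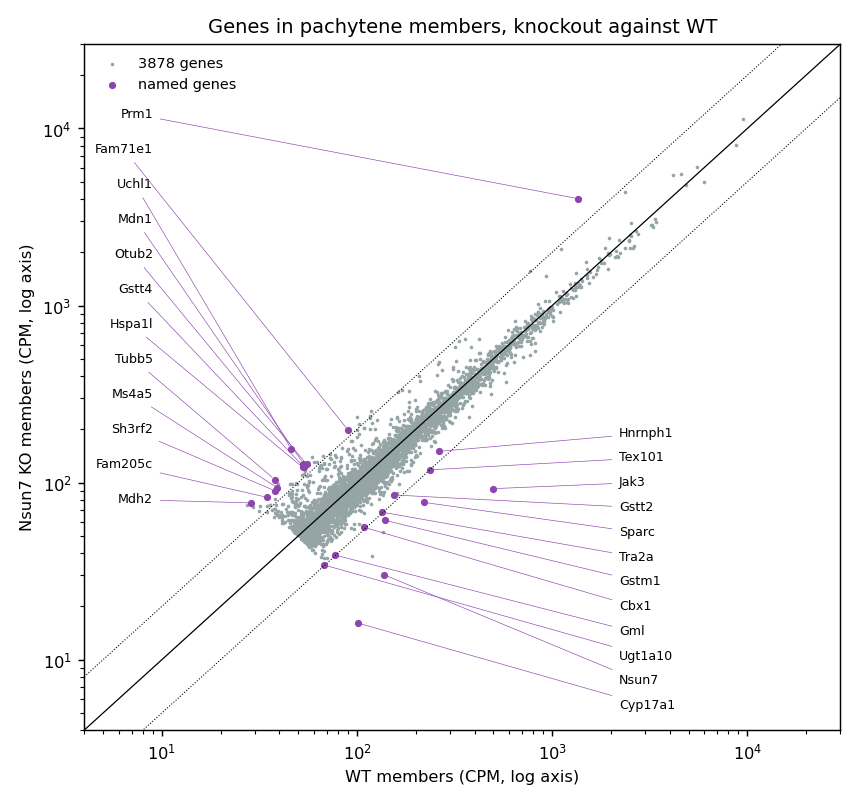
CPM of 3878 genes in KO members (y axis) against WT members (x axis), both log axes; the solid line is equality, dotted lines are 2 times apart, and the 24 named genes are in purple. Prm1 is far above the band at 4009 CPM in KO and 1362 CPM in WT, and Nsun7, Jak3 and Cyp17a1 lie below it.

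Uchl1, a ubiquitin hydrolase of spermatogonia, stood at 155 CPM in KO and 45.9 CPM in WT members, with a log2 ratio of 1.65. Without the members at 1% or more X-linked counts its log2 ratio was -0.10. Mdh2, the mitochondrial malate dehydrogenase, stood at 76.8 CPM in KO and 28.7 CPM in WT, and its log2 ratio turned to -0.22 without them. Hspa1l, a testis HSP70 chaperone, stood at 122 CPM in KO and 52.6 CPM in WT members, with log2 ratios of 1.14 and, without those members, 1.07. Otub2, a deubiquitinase, stood at 127 CPM in KO and 55.1 CPM in WT, and Gstt4, a glutathione transferase, at 122 CPM in KO and 53.6 CPM in WT. Tubb5, a beta tubulin, Mdn1, a ribosome assembly factor, Ms4a5, Sh3rf2, Fam205c and Fam71e1 were 2.21 to 2.75 times higher in KO. Without those members Tubb5 and Mdn1 had log2 ratios of 0.45 and 0.12, and the other 4 stayed above 1. Late spermatid markers, at 14689 CPM in KO and 7046 CPM in WT members, moved with these genes, and their part in the result was not tested.

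On the lower side, Jak3, a cytokine receptor kinase, stood at 92.4 CPM in KO and 495 CPM in WT members, and the Leydig enzyme gene Cyp17a1 at 16.1 CPM in KO and 101 CPM in WT. Leydig markers, at 37.9 CPM in KO and 221 CPM in WT members, moved with both, and their part was not tested. Without the members at 1% or more X-linked counts their log2 ratios were 0.45 and 0.37, in place of -2.36 and -2.33. Sparc, a matrix protein, stood at 77.3 CPM in KO and 220.4 CPM in WT, and Gstm1, another glutathione transferase, at 61.2 CPM in KO and 139 CPM in WT. Without those members their log2 ratios were -0.61 and -0.04, in place of -1.45 and -1.12. Genes short of the 2 times limit were Tex101, a membrane protein of germ cells, at 118 CPM in KO and 236 CPM in WT, Tra2a, a splicing factor, at 68 CPM in KO and 135 CPM in WT, and Cbx1, the heterochromatin protein HP1 beta, at 56 CPM in KO and 108 CPM in WT. Gml, Ugt1a10, Gstt2 and Hnrnph1 had KO levels 0.502 to 0.573 times those of WT. Without the members at 1% or more X-linked counts, 33 genes were higher and 7 lower, with 23 of the 29 and 3 of the 7 among them, and Tex101, Tra2a, Cbx1 and Dazl then passed the limit.

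With barcodes thinned to 3000 counts before the rule, nearly none of these differences reached 2 times. Of the members found in this way, 45 of 86 in KO and 215 of 414 in WT were also members by the full rule. Only the choice of members used thinned counts. Their levels were summed from full counts, at median depths of 9068 counts in KO and 15246 counts in WT. In the thinned selection 0 of 3828 genes were 2 times or more higher in KO and 1 was lower. The lower gene was Nsun7, at 36.6 CPM in KO and 154 CPM in WT. Prm1 stood at 2402 CPM in KO and 1355 CPM in WT, Jak3 at 93.7 CPM in KO and 59.9 CPM in WT, Uchl1 at 13.9 CPM in KO and 11.7 CPM in WT, Tra2a at 90.1 CPM in KO and 127 CPM in WT, Cbx1 at 63.7 CPM in KO and 102 CPM in WT, and Tex101 at 258 CPM in KO and 222 CPM in WT. The log2 ratio was 0.82 for Prm1, 0.67 for Hspa1l, 0.56 for Fam71e1, 0.54 for Otub2 and -0.64 for Cbx1, while Tex101, at 0.21, and Gml, at 0.54, changed sign. Of these members 2 KO and 9 WT barcodes had 1% or more X-linked counts, and late spermatid markers summed to 10515 CPM in KO and 7239 CPM in WT.

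The genes of the pachytene programme were compared in lists chosen with earlier results of these data known. A gene counted from a mean of 10 CPM. Over all 8626 such genes, 6.1% were 1.5 times or more higher in KO members, 2.47% were lower, and the median log2 ratio was -0.01. The plot of log2 ratios by list leaves out the panel genes.

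**Figure D5:**
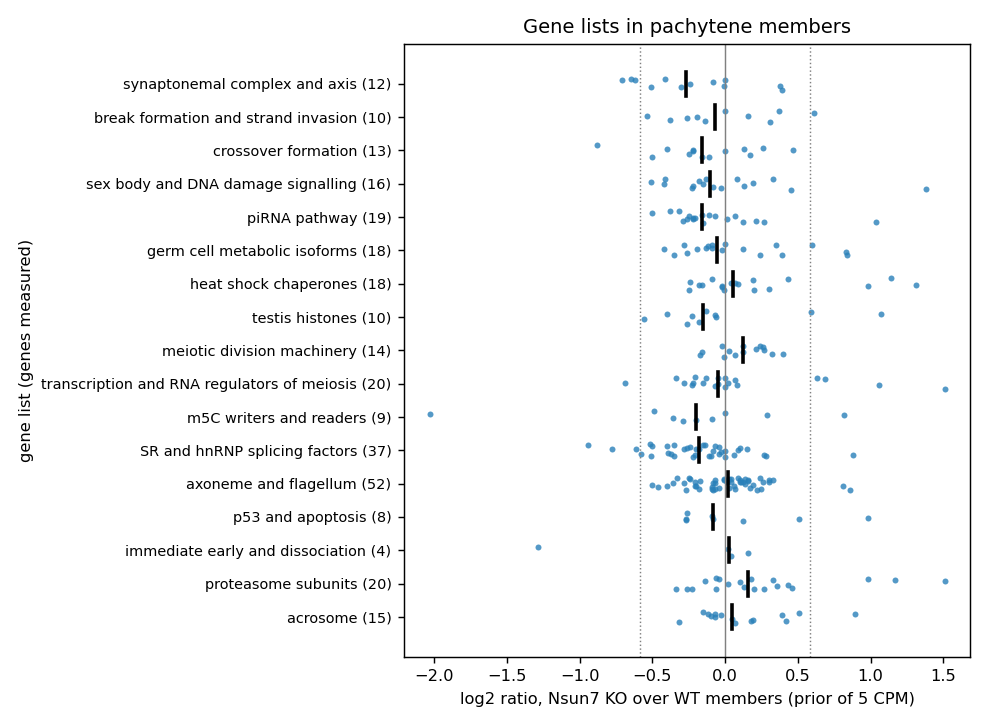
Log2 ratio of KO over WT members (prior of 5 CPM) for each measured gene of 17 lists, panel genes left out; bars are list medians, dotted lines mark 1.5 times, and the number of genes stands beside each name. Most genes lie within 1.5 times, and Nsun7 is the farthest to the left at -2.03.

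Of 12 measured genes of the synaptonemal complex and chromosome axis, 3 were 1.5 times or more lower in KO and 0 were higher, with a median log2 ratio of -0.27. Tex12, a central element protein, stood at 35.8 CPM in KO and 61.9 CPM in WT members, Hormad1, an axis protein, at 116 CPM in KO and 185 CPM in WT, and Sycp2, also of the axis, at 315 CPM in KO and 488 CPM in WT. Sycp3 stood at 479.5 CPM in KO and 639 CPM in WT, and Syce1 at 576 CPM in KO and 610.4 CPM in WT. In panel E barcodes Sycp2 stood at 765 CPM in KO and 1101 CPM in WT, so the KO level was the lower one there as well. Of 13 crossover genes, with a median of -0.16, Hfm1, a meiotic helicase, was lower, at 20.8 CPM in KO and 42.3 CPM in WT, and of 10 strand invasion genes, with a median of -0.07, Hells, a chromatin remodeller, was higher, at 54.5 CPM in KO and 34.1 CPM in WT, with a log2 ratio of 0.61 that changed to -0.21 without the members at 1% or more X-linked counts. Psmc3ip, the HOP2 partner of the recombinase DMC1, stood at 365 CPM in KO and 478 CPM in WT, and Spo11, which makes the meiotic breaks, at 94.5 CPM in KO and 108 CPM in WT.

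Of 16 genes of the sex body and of DNA damage signalling, 1 was higher and 0 lower, with a median of -0.10. Atr, the kinase that drives silencing of the sex chromosomes, stood at 261 CPM in KO and 305 CPM in WT members, Mdc1, its adaptor on chromatin, at 93.9 CPM in KO and 126 CPM in WT, and H2afx, the histone it marks, at 36.3 CPM in KO and 40.2 CPM in WT. The higher gene, the X-linked Polycomb protein gene Scml2, stood at 37.9 CPM in KO and 11.4 CPM in WT, and its log2 ratio changed to -0.40, in place of 1.38, without the members at 1% or more X-linked counts. Its own counts add to the share that decides who is left out, so this change is partly built in. Of 19 piRNA genes, with a median of -0.16, the only one past 1.5 times was Tex19.1, at 44.6 CPM in KO and 19.2 CPM in WT. Its log2 ratio was -0.69 without the members at 1% or more X-linked counts. Mael, needed for piRNA production and transposon silencing, was the most abundant, at 1439 CPM in KO and 1509.9 CPM in WT, against 421 CPM in KO and 476 CPM in WT panel E barcodes. Tdrd6, a Tudor protein of the chromatoid body, stood at 455 CPM in KO and 453 CPM in WT, against 7.65 CPM in KO and 32.4 CPM in WT there. The piRNAs themselves were not measured.

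Germ cell isoforms of energy metabolism were far above panel E barcodes, with list sums of 16061 CPM in KO and 17226 CPM in WT members against 2401 CPM in KO and 2797 CPM in WT. Ldhc, the lactate dehydrogenase of germ cells, made up much of that, with 8016 CPM in KO and 8744 CPM in WT, and the cytochrome oxidase subunit gene Cox8c stood at 1607 CPM in KO and 1921 CPM in WT. Between the libraries 3 of 18 genes were higher in KO and 0 lower, with a median log2 ratio of -0.06. Gapdhs, the sperm glycolytic GAPDH, stood at 467 CPM in KO and 259 CPM in WT members, Hk1 at 229 CPM in KO and 149 CPM in WT, and Aldoart1 at 24.4 CPM in KO and 11.6 CPM in WT. Gapdhs is among the late spermatid markers that stood higher in KO members. Of 18 chaperone genes Hspa1l, Hspe1 and Calr3 were higher in KO, with a median of 0.06. Hspe1, a mitochondrial chaperonin, stood at 74.7 CPM in KO and 27.3 CPM in WT, and its log2 ratio was -0.39 without the members at 1% or more X-linked counts. Hspa2, the HSP70 needed in pachytene cells, stood at 948 CPM in KO and 1007 CPM in WT and Hsp90aa1 at 2832 CPM in KO and 3201 CPM in WT. Among 10 testis histone genes H1fnt, at 253 CPM in KO and 118 CPM in WT, and Hils1, at 75.8 CPM in KO and 48.5 CPM in WT, both linker histones of elongating spermatids, were higher, and H3f3b, at 553 CPM in KO and 818 CPM in WT, was the lowest by ratio; the list median was -0.16.

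Axoneme and flagellum genes were already high, with list sums of 20829 CPM in KO and 21679 CPM in WT members against 3086 CPM in KO and 4000.2 CPM in WT panel E barcodes. Of 52 genes 2 were 1.5 times or more higher in KO, 0 were lower, and the median log2 ratio was 0.02. Meig1, which acts in flagellum assembly, stood at 4995 CPM in KO and 6012 CPM in WT, Rsph1, a radial spoke protein, at 2841 CPM in KO and 3259 CPM in WT, Odf2 of the outer dense fibres at 1753 CPM in KO and 1487 CPM in WT, and Dnaaf1, a dynein assembly factor, at 1061 CPM in KO and 1121 CPM in WT. The higher genes were Odf1, at 482 CPM in KO and 263 CPM in WT, and Akap4, at 327 CPM in KO and 184 CPM in WT, both genes of the sperm tail; Odf1 is among the late spermatid markers. Acrosome genes likewise summed to 4682 CPM in KO and 4598 CPM in WT members, against 680.0 CPM in KO and 878 CPM in WT panel E barcodes, and of 15, with a median of 0.05, only Fam71f2 was higher in KO, at 125 CPM in KO and 65.4 CPM in WT. The proacrosin gene Acr stood at 281 CPM in KO and 247 CPM in WT, and Zpbp2, a zona binding protein, at 654 CPM in KO and 629.9 CPM in WT.

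Of 20 regulators of meiotic transcription and RNA, 4 were higher and 1 lower, with a median log2 ratio of -0.05. The most abundant differed little: Ybx2, which stores germ cell messenger RNA, stood at 2502 CPM in KO and 2497 CPM in WT members, Ybx3 at 2123 CPM in KO and 2582 CPM in WT, Tbpl1, a TBP relative, at 873 CPM in each, and Tcfl5, a basic helix-loop-helix factor, at 563 CPM in KO and 584 CPM in WT. Rfx2 stood at 197 CPM in KO and 188 CPM in WT and Crem, which drives spermatid genes, at 217 CPM in KO and 237 CPM in WT. The higher genes Taf7l, Stra8, Dazl and Taf4b stood higher in panel E barcodes than in members, with log2 ratios of KO over WT of 1.51, 1.06, 0.69 and 0.63. Without the members at 1% or more X-linked counts these were 0.00, -0.06, -1.11 and -0.02. Taf7l is itself X-linked, so its change is partly built in. Ythdc2, a helicase of meiotic entry, was the lower gene, at 9.34 CPM in KO and 18.2 CPM in WT.

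Among m5C writers and readers, Nsun7 was the only one of 9 genes 1.5 times or more lower in KO, the list median was -0.20, and Nsun4, a mitochondrial methyltransferase, was higher, at 31.1 CPM in KO and 15.5 CPM in WT members. Nsun2, which methylates transfer RNA, stood at 178 CPM in KO and 144 CPM in WT and the m5C reader Ybx1 at 2963 CPM in KO and 3399.7 CPM in WT, against 706 CPM in KO and 939 CPM in WT panel E barcodes. Of 37 SR and hnRNP splicing factor genes 28 had ratios below 0 and 9 above, with a median of -0.18 against -0.01 over all 8626 genes. Of the 37, 3 were 1.5 times or more lower and 1 was higher. The higher gene, Hnrnpa1, had a log2 ratio of 0.88, and -0.49 without the members at 1% or more X-linked counts. The list summed to 6773 CPM in KO and 7722 CPM in WT members, but to 6822 CPM in KO and 6106 CPM in WT panel D barcodes. Tra2a stood at 68 CPM in KO and 135 CPM in WT, Hnrnph1 at 150.0 CPM in KO and 262 CPM in WT and Srsf6 at 49.3 CPM in KO and 78.1 CPM in WT, while the most abundant, Hnrnpu, stood at 556 CPM in KO and 600.1 CPM in WT. All 14 measured division genes outside the panels lay within 1.5 times, with a median of 0.12; Pttg1, the securin, stood at 270.4 CPM in KO and 275 CPM in WT and Ccnb2 at 236 CPM in KO and 216 CPM in WT.

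In the last lists the genes past 1.5 times lost their difference without the members at 1% or more X-linked counts. Of 20 proteasome genes Psmb10, Psme1 and Psme2, which belong to the immunoproteasome and its activator, were higher in KO, with a list median of 0.16. Psmb10 stood at 18.7 CPM in KO and 7.02 CPM in WT members, Psme1 at 20.2 CPM in KO and 6.2 CPM in WT, and Psme2 at 44.6 CPM in KO and 12.4 CPM in WT. Their log2 ratios without the members at 1% or more X-linked counts were -0.04, 0.02 and -0.31. Psma8, the spermatocyte subunit of the proteasome, stood at 211 CPM in KO and 268 CPM in WT, against 63.2 CPM in KO and 78.2 CPM in WT panel E barcodes. Of 8 genes of p53 signalling and apoptosis, with a median of -0.08, Cdkn1a was higher, at 27 CPM in KO and 11.2 CPM in WT, and changed to -0.13 without those members. Of 4 immediate early genes, with a median of 0.03, Jun was lower, at 17.6 CPM in KO and 50.4 CPM in WT, and changed to -0.15 in place of -1.29.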

How the data were processed

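Dissociated testis cells of 1 Nsun7 KO and 1 WT library were sequenced in droplets. The values deposited by the authors are raw counts of each gene in each barcode. Per the file headers PISA 0.12 generated them, and GRCm38 is the build per the submitters' processing notes. The aligner and the authors' annotation: not given in the sources used here. Nothing in the labels says whether a library came from 1 animal or several. The smallest total count per barcode was 1001, and median counts of kept barcodes were 12020.0 in KO and 8723 in WT. The matrices were joined by gene symbol into 30052 genes, of which 97.5% had a chromosome in the reference annotation used here (GENCODE).

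Counts of members were summed per library and given as CPM, with exact Poisson intervals for levels and Clopper-Pearson intervals for shares, at 95%, covering counting error only. KO over WT ratios used a prior of 5 CPM on genes at a mean of 50 CPM (lists 10 CPM), and TMM scaling was an alternative. The text names up to 12 genes per side by ratio between the libraries, 8 per side between stages and 6 per side within the members; 1 gene so picked is not reported here. No p-value was computed. Doublets were called with Scrublet (scanpy 1.11.5) per library, 622 KO and 600 WT barcodes, and kept. Promoter windows were read from RefSeq. Other tools were Python 3.11.15, numpy 2.4.6, scipy 1.17.1 and pandas 2.3.3. The comparison was tested on simulated data. The members and lists were chosen with earlier results of these data known. Alternatives changed the panel minimum, filters, depth, scaling, prior, level minimum, doublets and free RNA.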

Additional observations from a re-analysis of the deposited data

How the results depend on the processing

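The KO share of members was 0.259 times the WT share and 0.213 times with a panel minimum of 4; it was 0.218 with thinning, 0.222 with a protamine limit of 2% and 0.23 to 0.285 under the other settings. Of the genes 2 times or more apart between KO and WT members, 29 were higher in KO; the count was 9 with a protamine limit of 2%, 0 when barcodes were thinned before the rule, 16 with the mean of single barcodes' CPM, 19 with TMM scaling, 8 with a prior of 20 CPM, 123 and 2 with minimums of 10 and 200 CPM, 5 as a mean over 4 depth ranges and 146 with free RNA subtracted. The 7 lower genes became 15 with a panel minimum of 2, 1 with thinning, 20 with single barcodes' CPM, 33 and 1 with minimums of 10 and 200 CPM, 12 over depth ranges and 15 with free RNA subtracted. Free RNA was scaled on Leydig genes, and the subtracted share was 4.83% of counts in KO and 38.4% in WT members, or 5.05% in KO and 5.81% in WT without those at 1% or more X-linked counts. Named genes that turned round were Uchl1 (-0.10 without those members), Mdh2 (-0.72 thinned, -0.22 without them, -0.18 also with free RNA subtracted), Jak3 (0.60, 0.45 and 0.40 under the same settings), Cyp17a1 (0.03 thinned, 0.37 without them), Gstm1 (0.44 thinned, 1.08 with free RNA subtracted), Tex101 (0.21 thinned) and Gml (0.54 thinned), all as log2 ratios of KO over WT. The X-linked share was 0.59% in KO and 0.443% in WT with a panel minimum of 2, 0.316% in KO and 0.228% in WT with 4, 0.215% in KO and 0.17% in WT with 500 genes and 10% mitochondrial counts, 0.185% in KO and 0.138% in WT without members at 1% or more, and 0.38% in KO and 0.267% in WT without the 10 highest X-linked genes. In WT it was 0.322% with a protamine limit of 2% and 0.315% without called doublets. The genes lower than in panel D barcodes were 33 in place of 50 with a panel minimum of 2. The share of members with more panel D than panel E genes was 72% in KO and 66.3% in WT with a panel minimum of 2 and 96.4% in KO and 93% in WT with 4, and in WT 89.5% both at 3000 or more counts and without members at 1% or more X-linked counts. The causes of these changes were not tested. The settings that leave out members at 1% or more X-linked counts were chosen after seeing the data. No paired analysis was possible because each genotype has 1 library. Depth limits low genes in KO members, which hold 1926937 counts in all against 13387055 in WT members.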

Other observations

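Of the barcodes left out by the filters on genes and mitochondrial counts, 18 of 2968 in the KO library (0.606%) and 37 of 1237 in the WT library (2.99%) met the rest of the rule and held 200 or more genes, so only their mitochondrial share kept them out. Their median mitochondrial share was 35.7% in KO and 24.1% in WT. Their median X-linked share was 2.23% in KO and 2.86% in WT, above the 0.173% in KO members and 0.143% in WT members. They held a median of 8353 counts in KO and 12715 counts in WT.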
